A study of Glycine max with 16 samples.

Results

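The genes described here are the GASA genes and the DELLA genes GAI1 and GAI2 of soybean, read in leaves at 4 points of a warming curve. A probe set, the group of short probes that gives 1 value per transcript on the array, was a member where the platform annotation pairs it with exactly 1 gene whose symbol or synonym is GASA with a number, GAI1 or GAI2. This gave 24 probe sets of 18 genes, namely 20 probe sets of 16 GASA genes and 4 probe sets of the 2 GAI genes. The annotation pairs 8677 of the array's 61170 probe sets with 1 gene, and these name 6031 genes. All 18 member genes were found in a RefSeq table that lists 33 GASA genes, so GASA genes without such a probe set are not analysed here. Of the 24 probe sets, 18 of 14 genes were bright enough to be tested, and 6 were not.

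Gibberellins are plant hormones that promote stem and leaf growth, germination and flowering. They act by removing DELLA proteins, nuclear repressors of growth. The hormone binds its receptor GID1, the receptor then binds the DELLA protein, and the DELLA protein is degraded, so a DELLA transcript level does not give the level of the protein. GAI is a founding DELLA gene of Arabidopsis. GASA genes, first described as gibberellin-stimulated in tomato and Arabidopsis, encode small cysteine-rich peptides that carry a secretion signal. In Arabidopsis, members of the family have been tied to growth, flowering, redox balance and heat tolerance. Neither the labels nor the annotation gives a role for a single soybean member.

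The plants were Glycine max, cultivar Williams 82, with no transgene or mutation named in the labels, and the tissue was the first fully expanded leaf. They grew in a chamber at 22 °C with a 10 h photoperiod. The baseline state was photosynthesis at this growth temperature, and the optimum state was the temperature of highest photosynthesis. The 20% inhibition and 30% inhibition states were the warmer points at which photosynthesis had dropped below its optimum by those amounts. Air was warmed from 22 °C towards 42 °C in steps of 2 °C every 10 min, with a wait of 20 to 30 min before sampling, so a whole curve took 3 to 4 h and temperature and elapsed time cannot be told apart. Each state had 4 arrays, from 4 plants per state, which makes 16 arrays in all, and the labels do not say whether 1 plant gave leaves at several states.

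Values are MAS5 signal intensities, which carry no read depth. The number of arrays limits their precision. The array background is taken from probe sets assumed to match no soybean transcript. It was 81.8 ± 7.0 (SD, n = 4) on baseline arrays and 86.2 ± 11.9 on optimum arrays, against 124.8 ± 28.1 and 111.8 ± 30.8 on the arrays of 20% and 30% inhibition. The log2 ratio of the 3′ to the 5′ probe sets of the control gene GlutTrans, a sign of RNA quality, was 0.07 ± 0.25 at baseline and 0.80 ± 0.16, 0.89 ± 0.16 and 0.83 ± 0.13 at the warmer states. Both measures moved with the states, and their part in the changes below was not tested beyond a fit with the background as a covariate. The array of 20% inhibition replicate 3 had the highest background, 162.6. The leaf was checked by its markers: 13 of 17 leaf probe sets lay above background on all 16 arrays, with summed signals of 289042 to 400416. Of 16 seed probe sets, 13 lay below background on all 16 arrays, and the summed seed signal was 431 to 597 at baseline, 416 to 896 at the optimum, 455 to 1367 at 20% and 608 to 1346 at 30% inhibition. The 1 nodule probe set lay above background on all 16 arrays, at 172 to 238 at baseline, 150 to 280 at the optimum, 149 to 326 at 20% and 264 to 388 at 30% inhibition, so the last state does not overlap baseline. Of 2 root probe sets 1 lay below background on all 16 arrays, and their summed signal was 31 to 160 over the states. The part of these markers in the changes below was not tested.

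GASA22, GASA27, GASA9, GASA24 and GASA29 were higher in heat-inhibited leaves than at baseline, and the DELLA gene GAI1 was lower. At 30% inhibition, 6 of the 15 tested GASA probe sets, from those 5 genes, passed the test as higher and 0 as lower. That is 40% of them, beside 16.9% called higher and 17.7% called lower among all 30517 probe sets tested. The same 6 passed as higher at 20% inhibition, where 17% of all probe sets were called higher and 18.6% lower. At the optimum 2 passed as higher, GASA22 and GASA9, which is 13.3% beside 6.63% of all probe sets, and 0 passed as lower beside 6.26%. The median log2 change over the 15 probe sets was 0.66 at the optimum, 0.79 at 20% and 0.94 at 30% inhibition, while the median over all probe sets tested was 0.00, -0.01 and -0.01. Between baseline and the warmer state, 2, 6 and 5 of the 15 probe sets had higher arrays with no overlap, in that order, beside 9.16%, 15.6% and 16.6% of all probe sets. The 3 comparisons share the baseline arrays. By the F-test for any difference among the 4 states, 9 of the 18 tested GASA and GAI probe sets passed, beside 35.5% of all. In a fit of only the 15259 probe sets above the upper quartile of mean signal, 7738 passed the F-test. At 30% inhibition 3762 of these were called higher than baseline and 3695 lower. Most member probe sets lie above that quartile, where calls are more frequent than among all probe sets. The shares of all probe sets are therefore a low standard for the members, and 9 of 18 is not read as an excess. A change passed where its limma adjusted p, over all 30517 probe sets, was under 0.05.

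All 3 tested probe sets of GAI1 and GAI2 were called lower at 30% inhibition than at baseline, beside 17.7% of all probe sets. The GAI2 call (limma adjusted p = 0.0431) ended with each of 9 arrays left out in turn and under 4 alternative settings. The 2 probe sets of GAI1 were called lower at 20% inhibition as well, beside 18.6% of all. At the optimum 0 of the 3 passed, beside 6.26% of all called lower, and their median log2 change was -0.08. At the optimum, 20% and 30% inhibition, 0, 2 and 3 of the 3 were lower with no overlap, beside 10.5%, 16.8% and 18.2% of all probe sets. The medians were -0.74 at 20% inhibition and -0.85 at 30% inhibition. With so few probe sets these counts describe GAI1 and GAI2 only.

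**Figure D1:**
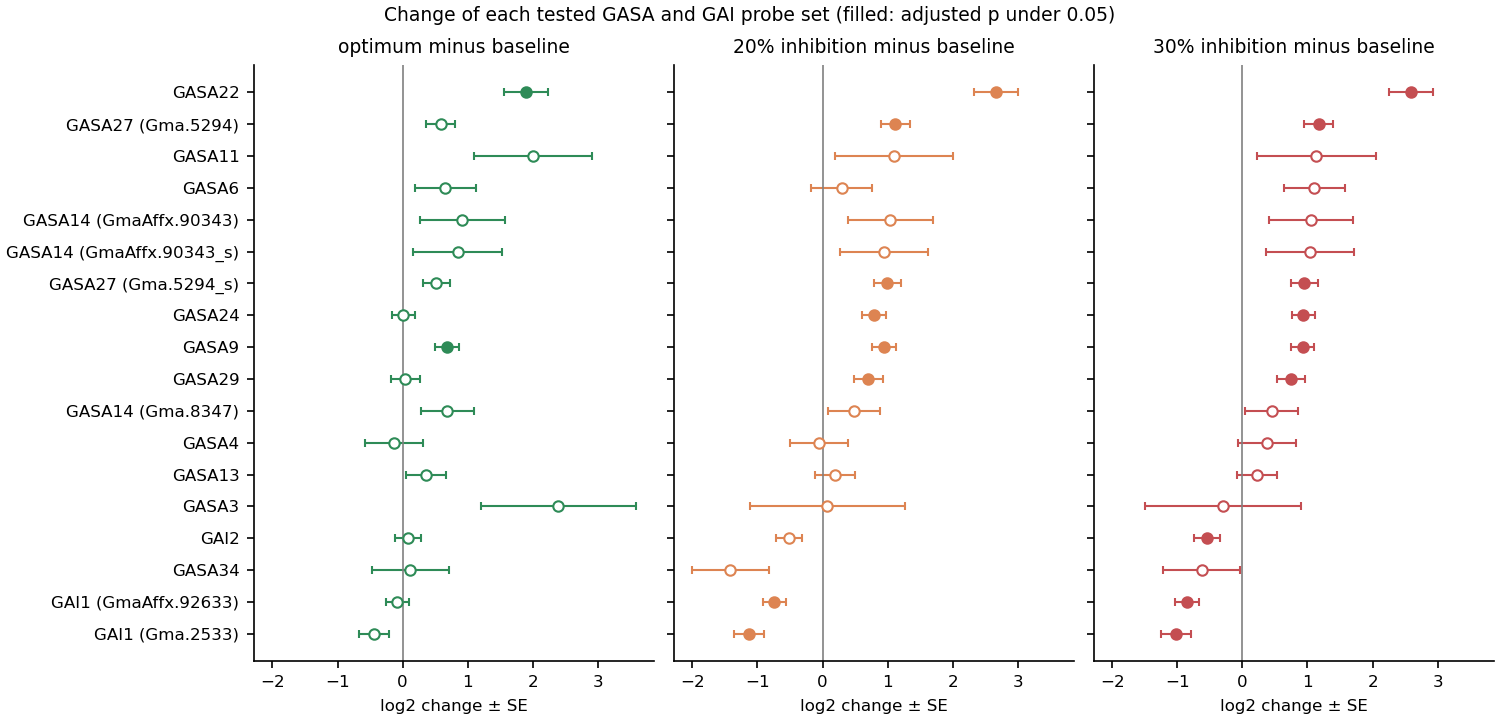
Log2 change against baseline (x axis, bars are the standard error of the limma fit) for each of the 18 tested probe sets of GASA and GAI genes (y axis), at the optimum, 20% inhibition and 30% inhibition, with n = 4 arrays per state. Filled points have an adjusted p under 0.05: GASA22 lies farthest to the right in the 20% and 30% panels, at 2.66 and 2.59, the filled GAI points lie left of 0, and GASA3, GASA11 and GASA34 have wide bars and open points.

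GASA22 (NCBI Gene 100500113) changed at the optimum already. Its signals were 3462, 2023, 6492 and 9448 on baseline arrays 1 to 4 and 23473, 17335, 11835 and 17199 on the optimum arrays. They were 30875, 29472, 23579 and 32119 at 20% inhibition and 28652, 25476, 24774 and 31150 at 30% inhibition. Every warmer array lay above every baseline array, and the arrays of both inhibited states lay above all optimum arrays, with the narrowest gap between 23473 and 23579. The log2 change against baseline was 1.90 ± 0.34 (SE, adjusted p = 0.00134) at the optimum, a 3.73-fold rise. It reached 2.66 ± 0.34 (adjusted p = 1.34e-05, 6.33-fold) at 20% inhibition and 2.59 ± 0.34 (adjusted p = 1.89e-05, 6.02-fold) at 30% inhibition. The step from the optimum to 20% inhibition, 0.76 ± 0.34, did not pass with all arrays (adjusted p = 0.137), although these groups do not overlap. It passed without baseline replicate 2 (adjusted p = 0.0462) and with only the arrays of these states in the fit (adjusted p = 0.0321). In whole-leaf RNA, a change in the number of cells of a type and a change in RNA per cell cannot be told apart.

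GASA27 (NCBI Gene 100305602) has 2 tested probe sets, and both rose in the inhibited states. The brighter one is of a kind whose probes match several transcripts. Its signals were 10057, 6966, 10930 and 13879 at baseline and 17501, 12733, 14875 and 13390 at the optimum, which overlap. They were 24844, 17606, 15176 and 25178 at 20% inhibition and 23176, 16834, 16106 and 23535 at 30% inhibition, all above the baseline arrays. The log2 change was 0.99 ± 0.21 (adjusted p = 0.0014) at 20% inhibition and 0.95 ± 0.21 (adjusted p = 0.00209) at 30% inhibition. The other probe set gave 1.12 ± 0.22 (adjusted p = 0.000836) and 1.17 ± 0.22 (adjusted p = 0.000608). Neither passed at the optimum, with changes of 0.52 ± 0.21 (adjusted p = 0.124) and 0.58 ± 0.22 (adjusted p = 0.0973). With the array background as a covariate both did (adjusted p = 0.0345 and 0.0197), and with the replicate number as a block the second did (adjusted p = 0.0464).

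GASA9 (NCBI Gene 100306110) rose in all 3 warmer states. Its signals were 11552, 9412, 13989 and 11438 at baseline and 25869, 17053, 15744 and 16520 at the optimum. They were 25662, 22314, 19861 and 20841 at 20% inhibition and 25558, 21031, 15877 and 26615 at 30% inhibition. No warmer array overlaps baseline, and optimum replicate 1 stands above the other 3 optimum arrays. The log2 change was 0.68 ± 0.18 (adjusted p = 0.0196) at the optimum, 0.94 ± 0.18 (adjusted p = 0.000652) at 20% and 0.93 ± 0.18 (adjusted p = 0.000788) at 30% inhibition. The call at the optimum ended without optimum replicate 1 (0.52, adjusted p = 0.0576) and without baseline replicate 2 (0.59, adjusted p = 0.0657).

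GASA24 and GASA29 were higher in the inhibited states, with estimates near 0 at the optimum. GASA24 (NCBI Gene 100305819) had signals of 3953, 2662, 3285 and 3656 at baseline and 3510.3, 2813, 4188 and 3140.0 at the optimum, which overlap. It had 5069, 4292.5, 7131 and 7257 at 20% inhibition and 6892.5, 7068, 5157 and 6716 at 30% inhibition, all above the cooler arrays. The log2 change against baseline was 0.01 ± 0.18 (adjusted p = 0.984, 95% interval -0.37 to 0.39) at the optimum, 0.79 ± 0.18 (adjusted p = 0.00258) at 20% and 0.93 ± 0.18 (adjusted p = 0.000719) at 30% inhibition. From the optimum to 20% inhibition it rose by 0.78 ± 0.18 (adjusted p = 0.00737), a step in which 2 of the 15 GASA probe sets were called higher, 13.3% beside 7.87% of all probe sets. With the array background as a covariate this step missed the threshold (adjusted p = 0.0506).

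GASA29 (NCBI Gene 100500115) is the other probe set called in that step. Its signals were 17083, 10255, 24924 and 18427 at baseline and 24469, 17663, 14210.5 and 14704 at the optimum, with wide overlap. At 20% inhibition they were 28103, 27439.7, 25772.5 and 28618, all above the cooler arrays. At 30% inhibition they were 28971, 30166, 22262 and 32487, where replicate 3 fell within the baseline range. The log2 change was 0.04 ± 0.22 (adjusted p = 0.938, interval -0.42 to 0.51) at the optimum, 0.71 ± 0.22 (adjusted p = 0.0187) at 20% and 0.74 ± 0.22 (adjusted p = 0.0143) at 30% inhibition. After quantile normalization the changes of 0.54 and 0.60 missed the threshold (adjusted p = 0.0789 and 0.0529), and without baseline replicate 2 the change at 20% inhibition was 0.47 (adjusted p = 0.0623). The step from the optimum, 0.66 ± 0.22 (adjusted p = 0.0482), missed the threshold under 16 of the alternative settings and left-out arrays.

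**Figure D2:**
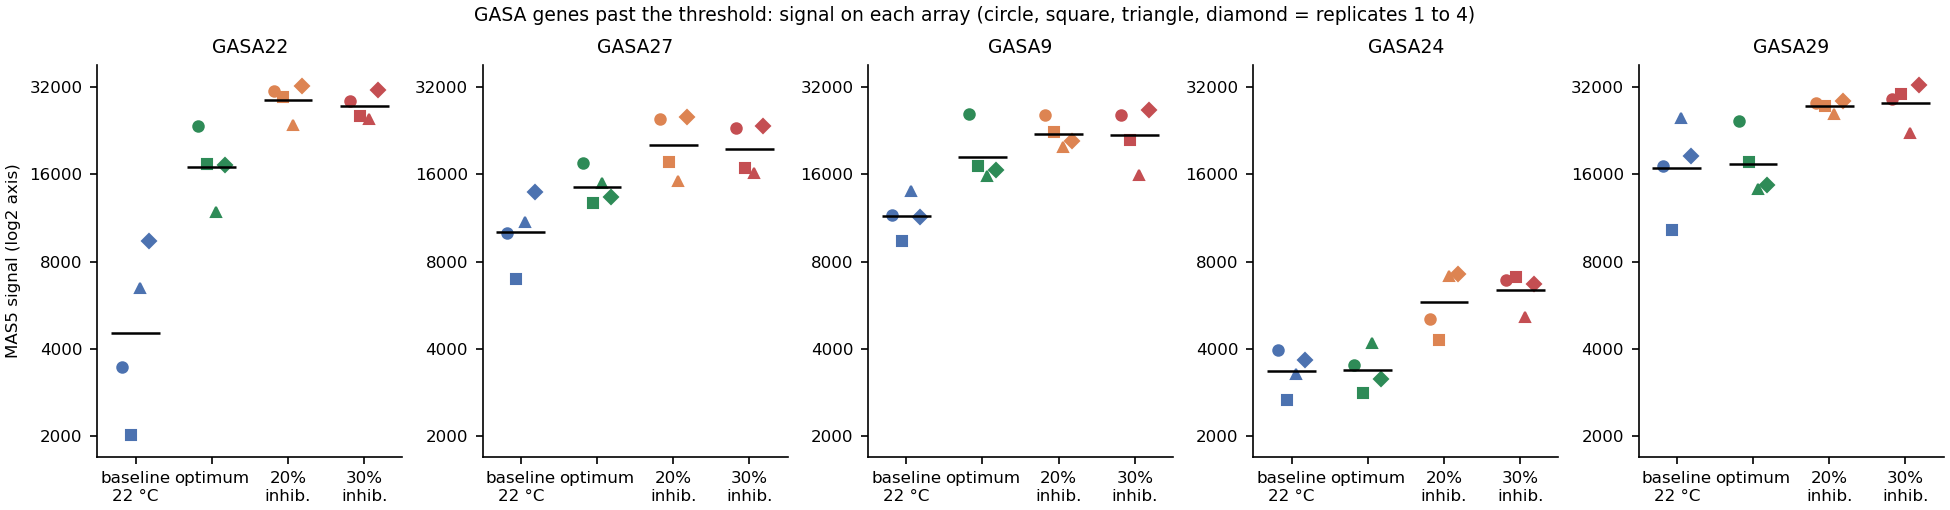
MAS5 signal on each of the 16 arrays (y axis, log2 scale) at the 4 states (x axis) for GASA22, GASA27, GASA9, GASA24 and GASA29, each by its brightest probe set. Points are arrays and black bars the mean log2 signal of 4 arrays. GASA22 and GASA9 lie above baseline at the optimum already, GASA24 and GASA29 overlap baseline there, and baseline replicate 2 is the lowest baseline array in all 5 panels.

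Baseline replicate 2 was the lowest baseline array for each of these 5 genes. Without it the calls at 30% inhibition stood for all 5, with log2 changes of 2.20 (adjusted p = 1.75e-05) for GASA22, 0.77 (adjusted p = 0.00774) for the brighter probe set of GASA27, 0.83 (adjusted p = 0.00346) for GASA9, 0.82 (adjusted p = 0.00308) for GASA24 and 0.51 (adjusted p = 0.0465) for GASA29. From the optimum to 30% inhibition, GASA24 and GASA29 were called higher, 2 of 15 beside 6.86% of all probe sets, by 0.92 ± 0.18 (adjusted p = 0.00259) and 0.70 ± 0.22 (adjusted p = 0.0424). The call of GASA29 in this step ended under 13 of the alternative settings and left-out arrays. Between 30% and 20% inhibition 0 of the 18 probe sets passed, and 0% of all probe sets did by limma, with 1193 at an unadjusted p under 0.05.

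GASA22 and GASA27 were set against each other within each array. The log2 difference GASA22 minus GASA27 was -1.16 ± 0.60 (SD, n = 4) at baseline, 0.23 ± 0.37 at the optimum, 0.51 ± 0.21 at 20% and 0.48 ± 0.15 at 30% inhibition. The shift was 1.38, 1.67 and 1.64, with no overlap between baseline and any warmer state. The two-sided exact permutation test gave p = 0.0286 for each shift, which is the lowest value possible with 4 arrays on each side. Adjusted over the 6 such tests, which include those of GAI1 minus GAI2, it was 0.0572, which misses the threshold. Each GASA22 minus GASA27 test was already at its lowest p. After adjustment these tests could pass only if a GAI1 minus GAI2 test also reached 0.0286. The adjusted value therefore cannot decide whether GASA22 and GASA27 differed in response, and the shifts and the lack of overlap are given as a description.

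**Figure D3:**
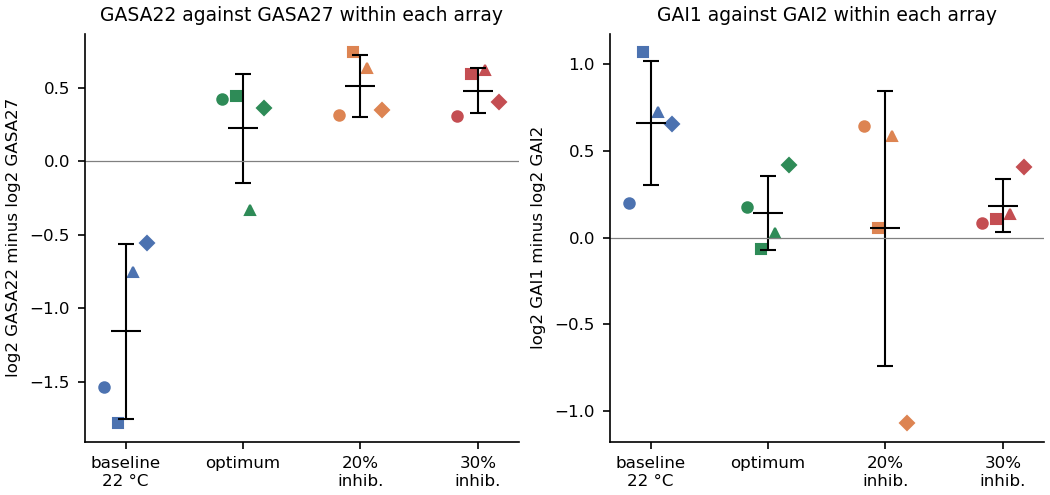
Within-array log2 difference (y axis) between GASA22 and GASA27 and between GAI1 and GAI2 at the 4 states (x axis). Points are single arrays, and bars the mean and SD of 4. The GASA22 minus GASA27 differences of the warmer states lie above all baseline arrays, and the GAI1 minus GAI2 differences overlap baseline.

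GAI1 (NCBI Gene 547718), which encodes a DELLA repressor of gibberellin responses, fell in the inhibited states by both of its probe sets. The brighter had signals of 1028, 1534, 1424 and 1088 at baseline and 879, 738, 891 and 1269.7 at the optimum, which overlap. It had 861, 513, 589 and 413 at 20% inhibition and 564, 471, 689.5 and 796 at 30% inhibition, all below the lowest baseline array. The log2 change was -0.43 ± 0.23 (adjusted p = 0.251) at the optimum, -1.13 ± 0.23 (adjusted p = 0.00105, 2.18-fold lower) at 20% and -1.02 ± 0.23 (adjusted p = 0.00244, 2.02-fold lower) at 30% inhibition.

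The dimmer GAI1 probe set had 416, 472, 489 and 549 at baseline, 424.5, 439.8, 499.9 and 453 at the optimum, 238, 276, 398 and 261 at 20% and 308, 233, 321 and 218 at 30% inhibition. Every inhibited array lay below every cooler array. Its log2 change was -0.08 ± 0.18 (adjusted p = 0.836) at the optimum, -0.74 ± 0.18 (adjusted p = 0.00406) at 20% and -0.85 ± 0.18 (adjusted p = 0.00151) at 30% inhibition. From the optimum to 20% inhibition it fell by 0.66 ± 0.18 (adjusted p = 0.0193). From the optimum to 30% inhibition 2 of the 3 GAI probe sets were called lower, the dimmer of GAI1 (-0.77 ± 0.18, adjusted p = 0.00884) and that of GAI2 (-0.63 ± 0.20, adjusted p = 0.0437), beside 7.12% of all probe sets. The GAI2 call in this step ended under 14 of the alternative settings and left-out arrays. All 3 were called lower from the optimum to 20% inhibition, beside 8.7% of all probe sets, but the calls of the brighter GAI1 probe set (-0.69 ± 0.23, adjusted p = 0.0485) and of GAI2 (-0.60 ± 0.20, adjusted p = 0.0455) ended under 17 and 18 of the alternative settings and left-out arrays. That of the dimmer GAI1 probe set ended without optimum replicate 3 (adjusted p = 0.0556) or 20% inhibition replicate 1 (adjusted p = 0.0621).

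GAI2 (NCBI Gene 547719), the second of these genes by its symbol, lay at the edge of the threshold. Its tested probe set had signals of 896, 730.5, 862 and 691 at baseline, 777, 771, 873 and 948 at the optimum, 551, 494, 393 and 868 at 20% and 532, 436.5, 628 and 599 at 30% inhibition. The 30% arrays all lay below baseline, whereas 20% inhibition replicate 4 lay among the baseline arrays. The log2 change was 0.09 ± 0.20 (adjusted p = 0.84) at the optimum, -0.52 ± 0.20 (adjusted p = 0.0507) at 20% and -0.54 ± 0.20 (adjusted p = 0.0431) at 30% inhibition. The call at 30% inhibition ended with no filter (adjusted p = 0.0724), with quantile normalization (0.0527), with no trend in the prior variance (0.0533) and with the array background as a covariate (-0.42, adjusted p = 0.198). It also ended without baseline replicate 1, 2 or 3, optimum replicate 2 or 3, 20% inhibition replicate 1, or 30% inhibition replicate 1, 2 or 4, where the adjusted p was between 0.0511 and 0.13. The change at 20% inhibition passed under 6 alternative settings or left-out arrays, with adjusted p between 0.00235, without 20% inhibition replicate 4 (-0.74), and 0.0495.

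The within-array log2 difference GAI1 minus GAI2, with the brighter probe set of each, was 0.66 ± 0.36 (SD, n = 4) at baseline, 0.14 ± 0.21 at the optimum, 0.05 ± 0.80 at 20% and 0.18 ± 0.15 at 30% inhibition. Its shifts of -0.52, -0.61 and -0.48 did not pass (exact permutation p = 0.0571, 0.143 and 0.0571, adjusted p = 0.0685, 0.143 and 0.0685). With the dimmer GAI1 probe set the shifts were -0.17, -0.22 and -0.31 (exact permutation p = 0.457, 0.6 and 0.257). A difference in response between GAI1 and GAI2 was therefore not shown.

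**Figure D4:**
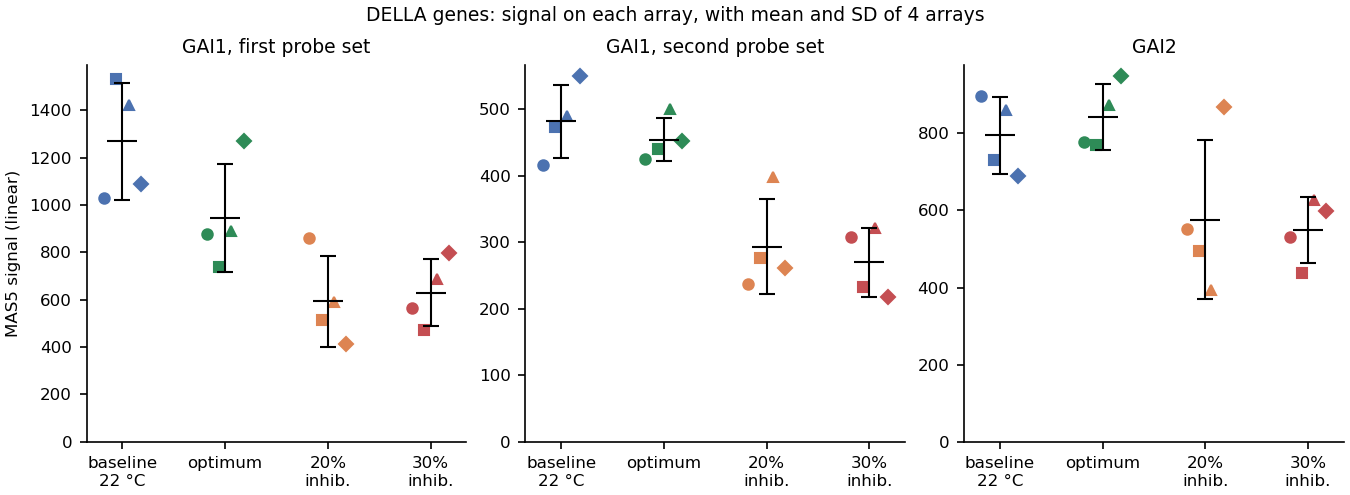
MAS5 signal on each of the 16 arrays (y axis) at the 4 states (x axis) for the 3 tested probe sets of GAI1 and GAI2. Points are arrays, and bars the mean and SD of 4. Both GAI1 probe sets lie below all baseline arrays at 20% and 30% inhibition, and GAI2 has 1 array at 20% inhibition, at 868, within the baseline range.

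The other 7 tested GASA genes, with 9 probe sets, did not pass in any comparison, and GASA3, GASA11, GASA14 and GASA34 varied widely between arrays of a state. GASA3 (NCBI Gene 100500485) had signals of 1438, 139, 2704 and 136 at baseline and 1446, 2071, 3963 and 4675 at the optimum. It had 1005, 228, 144 and 2766 at 20% inhibition and 1432, 251, 1821 and 49.4 at 30% inhibition. The highest array was 36.9 times the lowest at 30% inhibition. That lowest array, replicate 4, lay below its background of 94.8, as 20% inhibition replicate 3 lay below its background of 162.6. The log2 change at the optimum was 2.39 ± 1.19 (adjusted p = 0.22), with a 95% interval of -0.14 to 4.91, so a large change in GASA3 was not detectable against this spread.

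GASA11 (NCBI Gene 100306354) had 1101, 117, 1232 and 419 at baseline, 850.3, 1346, 5185 and 2924 at the optimum, 2221, 421, 333 and 4515 at 20% and 2161, 555.5, 2758 and 469.9 at 30% inhibition. Its changes were 2.01 ± 0.91, 1.10 ± 0.91 and 1.14 ± 0.91 (adjusted p = 0.17, 0.374 and 0.362). GASA14 (NCBI Gene 100500003) ranged in its brightest probe set from 1636 to 5305 at baseline, 2251 to 13202 at the optimum, 2464 to 14418 at 20% and 2897 to 12683 at 30% inhibition. Its 3 probe sets gave changes of 0.45 to 1.05 against baseline, with adjusted p between 0.229 and 0.484. GASA34 (NCBI Gene 100305480) had 565, 249.5, 605 and 254 at baseline and 254, 97.9, 39.5 and 439 at 20% inhibition, of which replicates 2 and 3 lay below background. Its change at 20% inhibition was -1.41 ± 0.59 (adjusted p = 0.0732), and it depended on single arrays and on the background. It was -1.95 (adjusted p = 0.0112) without 20% inhibition replicate 4, -0.79 without replicate 3 and -0.30 with the array background as a covariate, and the last 2 did not pass.

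By their brightest probe sets, GASA3, GASA11, GASA14 and GASA34 had the same 2 highest arrays in each state. GAI2 shared them in 3 of the 4 states. In 5 of the 18 tested probe sets, of GASA3, GASA11, GASA14 and GASA34, the highest pair of arrays was the same in all 4 states: replicates 1 and 3 at baseline, 3 and 4 at the optimum, 1 and 4 at 20% and 1 and 3 at 30% inhibition. These pairs were taken from GASA14, so the match of GASA14 with them is no separate result. The third GASA14 probe set and that of GAI2 shared the pair in 3 states. A place in the pair is a rank and need not be a high signal. GASA34 at 30% inhibition had 197.9 on replicate 3 beside 189.5 on replicate 2, and replicate 3 deviated by -0.33 from the state's mean log2 signal. GAI2 at 20% inhibition deviated by -0.001 on replicate 1. Over the 16 deviations of log2 signal from the state's mean, Pearson's r was 0.96 between GASA11 and GASA14, 0.90 between GASA3 and GASA11 and 0.82 between GASA34 and GASA11. GAI2 had 0.73 with GASA11, 0.70 with GASA14 and 0.74 with GASA34, and GASA13 had 0.85 with GASA34. It was -0.07 between GASA22 and GASA14, while GASA22 and GASA29 had 0.78. These genes and arrays were noticed after the values were seen, all values of an array share its RNA and scaling, and no test is given. The brightest GASA14 probe set and that of GASA34 are of the kind whose probes match several transcripts, like the brighter one of GASA27. Whether they read transcripts of other genes named here was not tested.

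**Figure D5:**
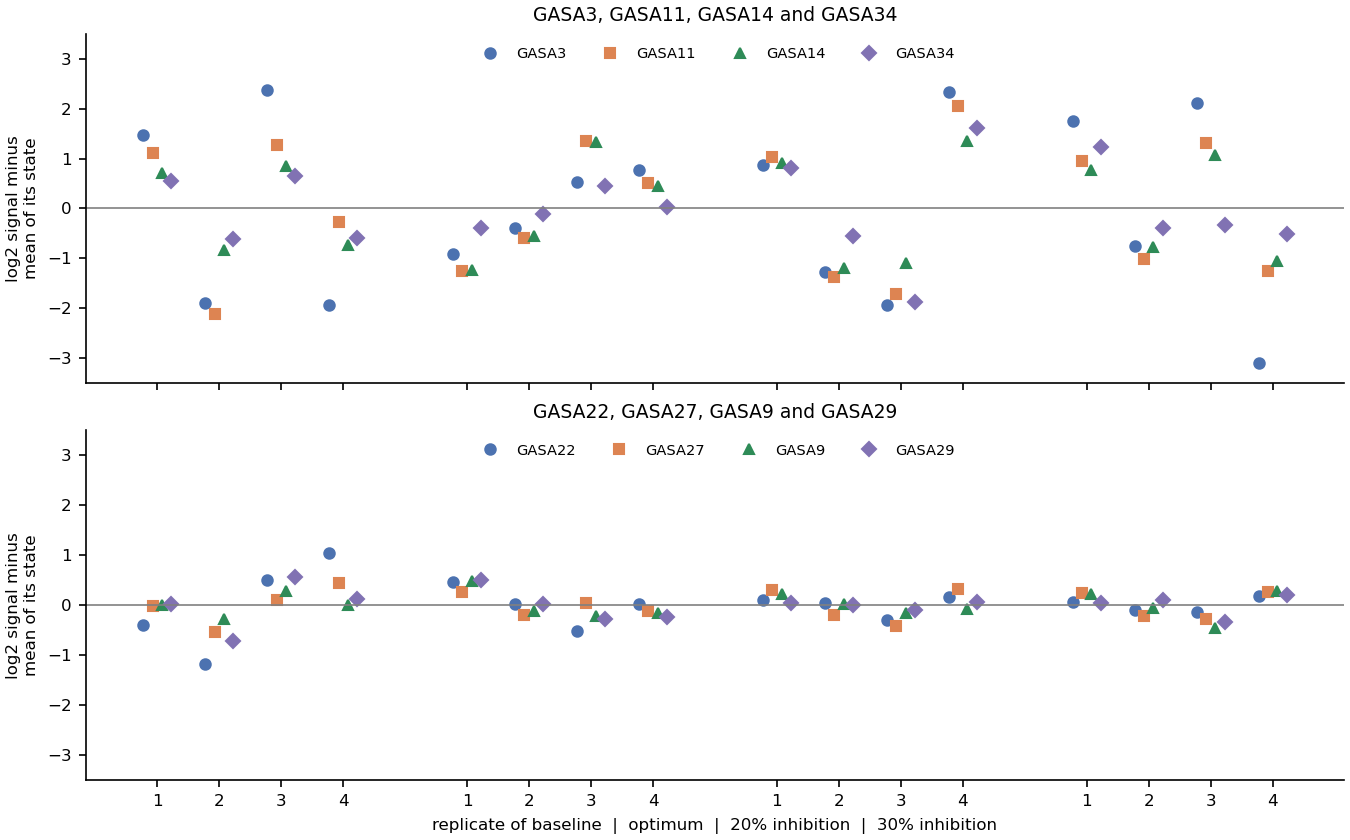
Log2 signal minus the mean of its state (y axis) on each array, by state and replicate number (x axis), for GASA3, GASA11, GASA14 and GASA34 (upper panel) and GASA22, GASA27, GASA9 and GASA29 (lower panel). In the upper panel the 4 genes mostly lie high or low on the same arrays, and most deviations in the lower panel are smaller.

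GASA13, GASA4 and GASA6 did not pass either. The intervals for GASA13 (NCBI Gene 100788586) were -0.28 to 1.00 at the optimum, -0.45 to 0.84 at 20% and -0.42 to 0.87 at 30% inhibition. Those for GASA4 (NCBI Gene 100795140) reached from -1.08 to 1.32 over the 3 states. GASA6 (NCBI Gene 100305516) had 1324, 402, 2052 and 1450.0 at baseline and 4607, 2239, 1293 and 2515 at 30% inhibition, which differ by 1.10 ± 0.47 on the log2 scale (adjusted p = 0.0799). That change passed without baseline replicate 3 (1.39, adjusted p = 0.0405), without 30% inhibition replicate 3 (1.40, adjusted p = 0.0378) and with the array background as a covariate (1.75, adjusted p = 0.0116). Without baseline replicate 2 it was 0.61 and did not pass.

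The 6 probe sets that were not tested lay below the array background on 11 to 16 of the 16 arrays. They report GASA12, GASA21, GASA32 by 2 probe sets, GASA33, and GAI2 by a second probe set. GASA12 lay below background on all 16 arrays. GASA33 lay above it on 1 array, 30% inhibition replicate 3, at 262, while its other signals were 79.9 or lower. GASA21 reached 178 on optimum replicate 1 and 242 on 30% inhibition replicate 1, its only arrays above background. Not above background is a bound on the signal, not a sign that the gene is silent. The brighter GASA32 probe set and the 2 brighter GASA14 probe sets carry the same cluster number in their IDs but different genes in the annotation. Their IDs also differ in a tag, A1 for GASA32 and S1 for GASA14, as do those of the untested and tested GAI2 probe sets. The sources used here do not give the meaning of these tags. GASA3, GASA6 and GASA13 are read by A1 probe sets only. The GASA32 probe set lay below background on 11 of 16 arrays, and the GASA14 probe sets lay above it on all 16.

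Of the enzymes that set gibberellin levels, the annotation names GA20OX3, which makes the precursors of active gibberellins, and GA2OX6 and GA2OX8, which inactivate gibberellins, by 5 probe sets. The 2 of GA2OX8 were tested, and 0 passed in either direction in any comparison. Their changes at 30% inhibition were -0.57 ± 0.31 (adjusted p = 0.175) for the brighter and -0.21 ± 0.29 (adjusted p = 0.622) for the dimmer. GA20OX3 and GA2OX6 were below background on 12 or more of the 16 arrays. The 10 probe sets whose symbols match the receptor and signalling list by letters, and the 1 that matches the other GRAS genes, were left out. This was decided on their names, and which genes they read was not checked. The members and the enzymes above were also chosen by symbol or synonym. Nothing is therefore said here about receptor, signalling or other GRAS genes.

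The genes most alike in pattern were found by Pearson's r of log2 signal over the 16 arrays among 935 other genes with a product name. For GASA22 they were HSP23.9 (r = 0.948), a small heat shock protein, HSP90A1 (0.945), a chaperone, and BIP4 (0.940), a chaperone of the endoplasmic reticulum. For GASA9 they were XET1 (0.897), a xyloglucan endotransglycosylase of the cell wall, GASA22 (0.894) and CYP34 (0.891). For GASA27 they were GASA22 (0.904), ALDH10A2 (0.888), an aldehyde dehydrogenase, and GASA9 (0.879). GASA22, GASA9 and GASA27 share the same arrays and states.

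For GASA24 the most alike were GSTa (0.863), a glutathione S-transferase, HSP22.5 (0.862), a small heat shock protein, and PIP1-4 (0.857), an aquaporin. GASA3 was most like BZIP50 (0.948), and GASA11 most like GASA14 (0.921). The aquaporin PIP1-6 was among the 3 most alike for GASA3 (0.928), GASA11 (0.920) and GASA14 (0.828). GASA34 was most like SEOA (0.934), a protein of the phloem's sieve elements. GAI1 was most like MYB186 (0.848), and GAI2 most like RLK1 (0.915), a receptor-like kinase. These r values describe the 16 arrays, include the differences between states and carry no test.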

How the data were processed

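The authors deposited linear MAS5 signal intensities, per the submitters' processing notes, with MAS5 version, detection calls and genome build not given in the sources used here. Every array had a trimmed mean of 500, so total RNA changes cannot be read. Here intensities were taken to log2 with no constant, probe sets with a mean log2 signal above the median of non-control probe sets (6.08, a signal of 67.6) were kept, and limma 3.58.1 in R 4.3.3 fitted a mean per state over 16 arrays with a trend in the prior variance (16.4 total degrees of freedom, two-sided, Benjamini-Hochberg over 30517 probe sets). Background was the 95th percentile of the PsAffx and HgAffx probe sets on each array. All members were named, tested or not, and a gene was represented by its brightest probe set. Gene names came from the platform annotation, and 8652 of 8677 single-gene probe sets matched RefSeq (Glycine_max_v4.0). All names that matched the signalling and GRAS lists by letters were left out, so 0 probe sets of these lists were used. The members and lists were chosen with earlier results of these data known. Equal replicate numbers were not taken to pair arrays: 24 correlations of deviations lay between -0.278 and 0.217, and 7 passed 0.1. No 2 arrays were identical. The labels name separate plants within a state. Alternatives were no filter or a stricter one, signals floored at background, an added constant of 50, quantile normalization, no trend, background as a covariate, array weights, a replicate block, only the arrays compared, and each array left out.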

Additional observations from a re-analysis of the deposited data

Results flagged for a closer look

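In 4 of 72 groups of 4 arrays, 1 array stood apart from the other 3 by Dixon's 95% criterion, which uses the ratio of its gap to the group's range, and chance flags about 1 in 20 groups. GASA9 at the optimum had replicate 1 high (ratio 0.839), and its call there ends without that array. GASA24 at 30% inhibition had replicate 3 low (0.838), and its call stood without it. GASA34 at 30% inhibition had replicate 1 high (0.896), and GASA4 at 30% inhibition had replicate 4 high (0.915), at 458 beside 295 to 306. Neither gene passed there with or without that array.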

How the results depend on the processing

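Over 10 alternative settings and 16 left-out arrays, 3090 alternative values of 120 member and gibberellin metabolism changes were computed. Of these 2964 stayed on their side of the threshold, 99 lost the call and 27 gained one. The sign changed in 107 values, of which 0 were called in either fit. Against baseline, 15 of 19 called member changes kept the call throughout and 29 of 35 uncalled ones stayed uncalled. The exceptions are given with their values in the report, except that GASA13 at 20% inhibition passed with the array background as a covariate (0.90, adjusted p = 0.0462). That covariate lowered the number of probe sets called from 10863 to 7070 at 20% inhibition against baseline, from 5059 to 2223 and from 4267 to 2739 at 20% and 30% inhibition against the optimum, and from 10829 to 6960 for the F-test. At 30% inhibition against baseline the number fell from 10579 to 8262, and at the optimum against baseline from 3932 to 3913. The cause was not tested. With the replicate number as a block, 3558, 10473, 10162, 4578, 3816 and 0 probe sets were called in the 6 comparisons. By the correlations of deviations, which did not all pass 0.1, the numbers were not taken as pairs. Each array was set against the 4 arrays of each other state, and in 19 of 48 such comparisons the array of its own number correlated best, where numbers without meaning would give 12. Under the block 102 member values stayed on their side of the threshold, most of them uncalled in both fits, while 4 lost the call and 2 gained one. With the untested GAI2 probe set the GAI1 minus GAI2 value at 30% inhibition was -2.24 (exact permutation test, adjusted p = 0.0429), but that probe set lay below background on 15 of 16 arrays, so this is no measurement of GAI2 and nothing is read from it. Signals near background limit GASA12, GASA21, GASA32 and GASA33. Among tested genes, GASA3 and GASA34 lay below background on 2 arrays each and GASA4 on 1.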
